A study of Mus musculus with 4 samples.

Results

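Narrower shared regions at gene ends are stretches of open chromatin under 1000 bp wide that had a peak in every library and lay within 1 kb of an end of a protein-coding gene. They were found by merging peaks of the 4 libraries that overlapped by at least 1 bp on chromosomes 1 to 19 and X, with gene ends from a RefSeq table of GRCm38. Of 171490 merged regions, 78650 were called in all 4 libraries and are named shared regions here, and 15827 of those were members (20.1% of shared regions). The members were chosen by peak calls, width and position, so these were selected on and are given as a description with no test.

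The libraries came from Omni-ATAC-seq, in which Tn5 transposase cuts and tags accessible DNA. The KO group was 2 libraries of Maf fl/fl Il7rCre fetuses, in which Cre made from the Il7r gene deletes floxed Maf in lymphoid precursors. The WT group was 2 libraries of Maf+/+ Il7rCre fetuses, so both genotypes carried the Cre. Every library was made from γδ T cells of the fetal thymus, CD4- CD8- CD24+ CD45RBlo, sorted from pooled fetuses of embryonic day 17 to 18 on a C57Bl/6 background (N5 backcross). Whether both libraries of a genotype were made from different pools is not stated in the labels, and p-values then measure a spread that may be only technical. The KO libraries had 130935 and 120141 peaks, and the WT libraries 102718 and 132179. The median −log10 q of the members was 35.6 in KO 1 and 42.6 in KO 2, against 26.4 in WT 1 and 52.9 in WT 2. Since those levels differed between libraries of 1 genotype, libraries were compared by rank. The rank percentile of a region is the place of its highest −log10 q among all shared regions of that library, from 0 for the lowest to 100 for the highest. Inside Maf the highest −log10 q was 3.17 in KO 1 and 3.06 in KO 2, against 15.0 in WT 1 and 15.9 in WT 2.

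A gene begins at a promoter, where RNA polymerase II and general factors assemble on DNA kept free of nucleosomes. Most promoters of broadly used mammalian genes lie in CpG islands, are accessible in most cell types and bind factors such as SP1, NF-Y, YY1 and the ETS family, while promoters of tissue-restricted genes more often lack an island. The far end of a gene, where transcription finishes, has no such general platform. c-Maf, the product of Maf, is a basic leucine zipper factor that γδ T cells need in order to make IL-17.

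The promoters printed next lie under members of the highest rank and under members whose rank differed between genotypes. Each is a RefSeq window of GRCm38.p6 from 250 bases before an annotated start to 50 after it, 5′ to 3′ on the strand of the gene, with capitals only for the matches named here. Other matches to the searched motifs stay in lower case. The first 4 are the highest ranked members that held the motif shown. In Kdm4a, a histone lysine demethylase, capitals mark an AP-1 site (TGAGTCA) and, read on the other strand, a CCAAT box (ATTGG). In Mxd4, a repressor that pairs with MAX, they mark an E-box (CACGTG) and a GC box on the other strand (CCGCCC). In Cggbp1, whose product binds CGG repeats, they mark an ETS site on the other strand (CTTCCGG), and in Kansl2, a subunit of a histone acetyltransferase complex, a YY1 site (AAGATGGC).
Kdm4a, chr4:118179994-118180293, minus strand: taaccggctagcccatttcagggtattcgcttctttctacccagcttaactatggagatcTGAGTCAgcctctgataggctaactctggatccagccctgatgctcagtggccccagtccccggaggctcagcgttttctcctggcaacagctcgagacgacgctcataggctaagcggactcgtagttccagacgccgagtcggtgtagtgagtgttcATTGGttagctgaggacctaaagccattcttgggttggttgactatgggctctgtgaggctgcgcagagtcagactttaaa
Mxd4, chr5:34187661-34187960, minus strand: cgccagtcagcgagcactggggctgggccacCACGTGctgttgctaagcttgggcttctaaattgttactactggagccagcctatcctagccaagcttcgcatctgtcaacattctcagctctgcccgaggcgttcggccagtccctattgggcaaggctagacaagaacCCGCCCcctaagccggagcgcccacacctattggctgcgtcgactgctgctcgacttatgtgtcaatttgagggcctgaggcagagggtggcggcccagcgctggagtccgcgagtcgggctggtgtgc
Cggbp1, chr16:64851751-64852050, plus strand: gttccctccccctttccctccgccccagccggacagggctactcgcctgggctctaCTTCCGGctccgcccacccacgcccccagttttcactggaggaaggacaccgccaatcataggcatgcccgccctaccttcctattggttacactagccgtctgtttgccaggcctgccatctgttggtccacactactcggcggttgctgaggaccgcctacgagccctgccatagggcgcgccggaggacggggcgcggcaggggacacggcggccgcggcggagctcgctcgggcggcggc
Kansl2, chr15:98534220-98534519, minus strand: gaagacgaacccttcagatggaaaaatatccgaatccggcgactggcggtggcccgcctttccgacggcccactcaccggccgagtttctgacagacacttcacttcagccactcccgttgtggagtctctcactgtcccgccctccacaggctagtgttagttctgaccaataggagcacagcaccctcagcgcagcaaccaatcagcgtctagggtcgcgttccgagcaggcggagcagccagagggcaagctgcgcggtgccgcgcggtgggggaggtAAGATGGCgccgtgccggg
The other 3 belong to members set apart by genotype. Capitals mark a TATA box (TATAAA) in Il17f and a GC box (GGGCGG) in Lef1. In Gzmb they mark an AP-1 site and, on the other strand, a match named a MAF-type site here (TCAGCA). Its letters are only a part of the MAF recognition element and were found in 17.9% of all promoter windows.
Il17f, chr1:20784221-20784520, minus strand: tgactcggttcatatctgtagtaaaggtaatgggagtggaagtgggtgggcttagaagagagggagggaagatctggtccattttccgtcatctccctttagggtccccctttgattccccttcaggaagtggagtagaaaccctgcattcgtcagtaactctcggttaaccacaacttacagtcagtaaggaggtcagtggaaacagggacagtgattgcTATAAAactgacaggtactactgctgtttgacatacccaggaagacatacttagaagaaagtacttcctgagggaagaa
Gzmb, chr14:56262285-56262584, minus strand: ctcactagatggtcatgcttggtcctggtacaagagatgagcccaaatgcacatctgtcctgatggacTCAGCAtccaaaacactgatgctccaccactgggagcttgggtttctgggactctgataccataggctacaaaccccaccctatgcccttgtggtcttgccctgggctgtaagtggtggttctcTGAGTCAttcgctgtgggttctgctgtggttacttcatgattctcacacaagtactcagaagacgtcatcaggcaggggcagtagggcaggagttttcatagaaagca
Lef1, chr3:131110047-131110346, plus strand: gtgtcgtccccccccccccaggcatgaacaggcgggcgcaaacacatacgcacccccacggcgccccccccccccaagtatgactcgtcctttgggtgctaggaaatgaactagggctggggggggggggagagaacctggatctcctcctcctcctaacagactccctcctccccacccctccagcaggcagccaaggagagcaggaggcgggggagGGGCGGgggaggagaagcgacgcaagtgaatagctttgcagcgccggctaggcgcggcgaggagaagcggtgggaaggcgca
The windows of Kdm4a, Mxd4, Cggbp1 and Kansl2 held 13, 18, 28 and 26 CpG dinucleotides, and those of Il17f, Gzmb and Lef1 held 4, 2 and 18. The motif in Il17f stood 29 to 24 bases before the annotated start, and the CCAAT box in Kdm4a 31 to 27 bases before it.

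Most members sat at the start of a gene. Beside a start alone were 10542 (66.6%), beside a finish alone 1585 (10.01%) and beside both 640 (4.04%), and 3060 (19.3%) were at ends whose strand was not known. The summit of a member, averaged over the libraries, lay at a median of −41.2 bp from the nearest annotated start for those at starts (quartiles −127.5 and 45.5 bp, negative upstream). Within 100 bp of the start were 5113 of them (48.5%). Beside the starts of a divergent pair of genes, transcribed away from each other, were 713 members (4.50%), which are also counted in the classes above. Summits of the 4 libraries were close together, with a median of 34 bp between the outermost ones. They lay within 50 bp in 66.0% of members and more than 250 bp apart in 498 members (3.15%).

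**Figure D1:**
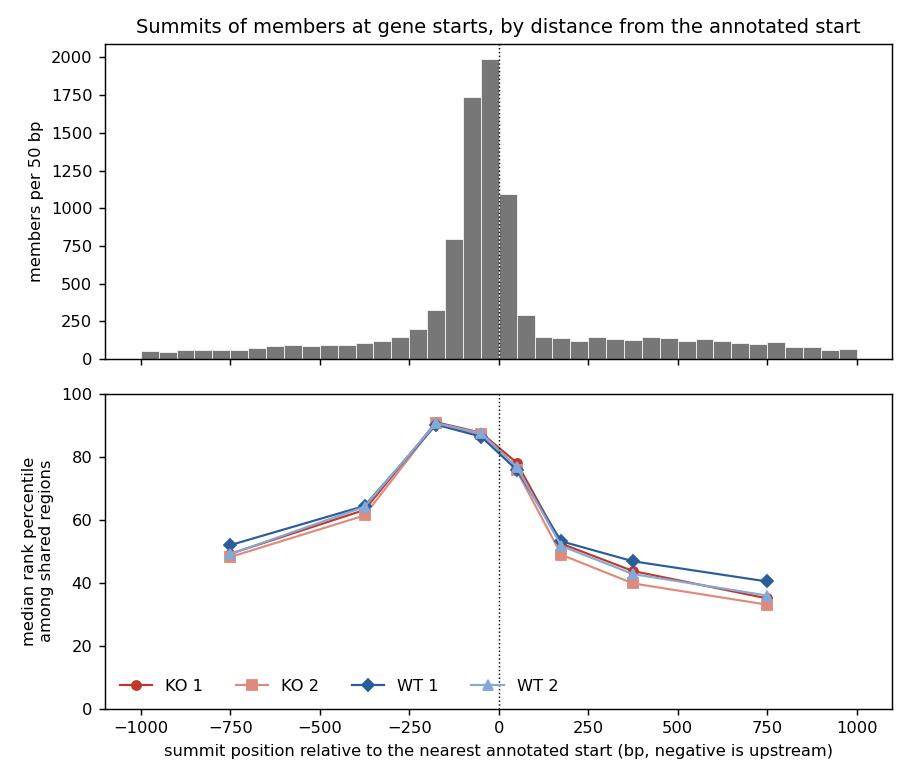
Members at gene starts by the distance of their summit from the nearest annotated start (x axis, bp, negative upstream), as members per 50 bp (top) and as the median rank percentile in KO 1, KO 2, WT 1 and WT 2 (bottom). Members crowd just upstream of the start, and ranks are highest between −250 and −100 bp, with medians from 90.1 to 90.9.

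Rank varied with position in every library. Members with a summit 250 to 100 bp upstream had a median percentile of 90.9 in KO 1 and 90.6 in KO 2, against 90.1 in WT 1 and 90.6 in WT 2 (1319 members, median width 500 bp). Members with a summit 500 to 1000 bp inside the gene had a median of 35 in KO 1 and 33 in KO 2, against 40.4 in WT 1 and 35.9 in WT 2 (989 members, median width 272 bp). These windows lie at unlike distances from the start. From 1000 to 500 bp upstream (688 members, median width 249 bp), the median was 49.2 in KO 1 and 48.2 in KO 2, against 51.9 in WT 1 and 49.1 in WT 2.

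Divergent starts ranked above the other kinds of member and gene finishes below them. At divergent starts the median percentile was 88.3 in KO 1 and 88.2 in KO 2, against 87.4 in WT 1 and 87.9 in WT 2, and the median width was 464 bp. At starts as a whole it was 75.4 in KO 1 and 74.1 in KO 2, against 74.6 in WT 1 and 75 in WT 2, with a median width of 415 bp. At finishes it was 49.3 in KO 1 and 49 in KO 2, against 49.7 in WT 1 and 50.2 in WT 2, with a median width of 247 bp. Finishes lay near the 35263 narrower shared regions inside genes and away from ends, where the median was 45.2 in KO 1 and 45.6 in KO 2, against 45.8 in WT 1 and 45.6 in WT 2 and the width 258 bp. Over all members the median was 70.5 in KO 1 and 69.7 in KO 2, against 70.3 in WT 1 and 70.6 in WT 2.

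**Figure D2:**
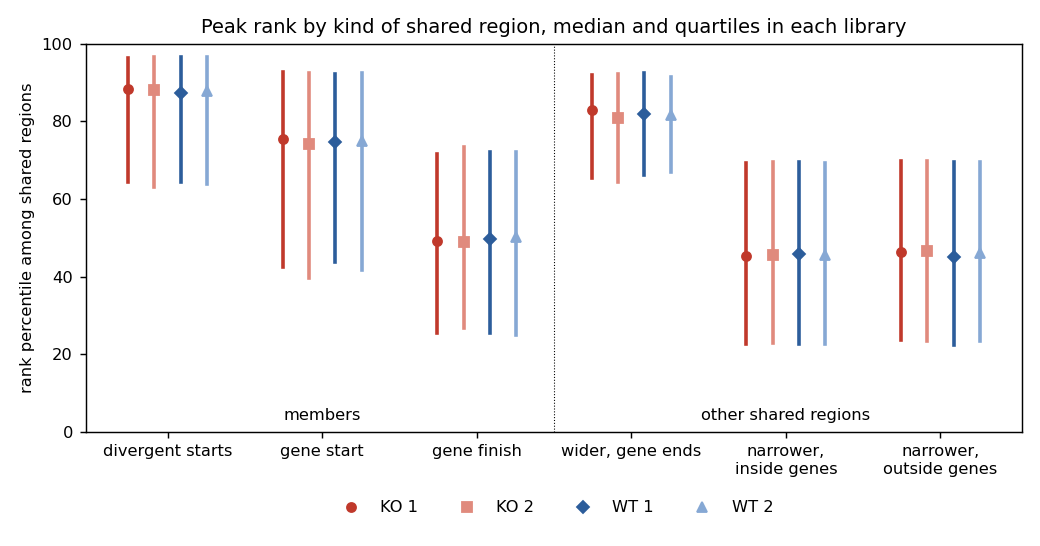
Rank percentile among shared regions (y axis) for kinds of member and for other shared regions, with the median as a point and the quartiles as a line for KO 1, KO 2, WT 1 and WT 2. Divergent starts stand highest, with medians from 87.4 to 88.3, and gene finishes lie near regions inside genes, with medians from 49.0 to 50.2.

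Members were 92 to 999 bp wide, with a median of 383 bp and quartiles of 254 and 552 bp. Those under 200 bp (2074 members) had a median percentile of 26.7 in KO 1 and 25.1 in KO 2, against 28.2 in WT 1 and 25.1 in WT 2. From 400 to 600 bp (4336 members) it was 85.7 in KO 1 and 85.4 in KO 2, against 84.7 in WT 1 and 85.5 in WT 2. From 800 bp on (849 members) it was 85.3 in KO 1 and 83.8 in KO 2, against 84.6 in WT 1 and 84.3 in WT 2, so rank levelled off above 400 bp. The 375 shared regions of 1000 bp or more at gene ends had a median of 82.9 in KO 1 and 81 in KO 2, against 82 in WT 1 and 81.7 in WT 2. Width and rank both come from the same calls and are not independent.

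The highest ranked member was at the finish of Lars2, the mitochondrial leucyl-tRNA synthetase (chr9:123461809-123462189), with a −log10 q of 959.6 in KO 1 and 1227 in KO 2, against 844 in WT 1 and 1203 in WT 2. The next were at the finish of Wls, a carrier of Wnt proteins (chr3:159939405-159939679), and at the starts of Tmem160, Kdm4a and Mxd4. At Kdm4a (chr4:118179933-118180298) the −log10 q was 639 in KO 1 and 684 in KO 2, against 561 in WT 1 and 829.7 in WT 2. Lars2, Wls, Tmem160, Kdm4a and Mxd4 kept percentiles above 99.9 in every library. The lowest members were near Ssb, Fth1, Rhoh, Flrt2 and Ell3, with mean percentiles of 0.978 to 1.19. Near Ssb, which encodes an RNA-binding protein that helps small RNAs mature, the −log10 q was 2.38 in KO 1 and 3.02 in KO 2, against 1.33 in WT 1 and 3.42 in WT 2, close to the limit of 1.00 at which every list ended.

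The narrowest members, 92, 95 and 96 bp wide, were at the finishes of Tusc2 and Sox4 and at an end of Ampd1. At the upper limit of width, the start of the cytokine gene Mif was a member at 999 bp, with percentiles of 96.1 in KO 1 and 94.4 in KO 2, against 94.4 in WT 1 and 96.2 in WT 2. The start of Rnf149, a ubiquitin ligase, was left out at 1000 bp, with 84.3 in KO 1 and 80.5 in KO 2, against 83.3 in WT 1 and 88.9 in WT 2. H2bc12 was a member at 999 bp and Prss57 was left out at 1000 bp. At the limit of distance, members 1000 bp from Tulp1 and LOC102634078 were kept, and regions 1 bp farther from Rac1 and Prr13 were not. The percentiles near Tulp1 were 65.9 in KO 1 and 70.2 in KO 2, against 64.8 in WT 1 and 70.4 in WT 2, and near Rac1 25.7 in KO 1 and 15.8 in KO 2, against 17.8 in WT 1 and 24.4 in WT 2.

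Seen from the genes, 12608 of 21627 protein-coding genes (58.3%) had a member at an end. A wider shared region alone was found at 342 genes (1.58%), peaks in fewer than 4 libraries at 1863 (8.61%) and no peak at 6814 (31.5%). A missing call does not show that DNA is closed. Of 17273 genes of known strand, 9496 (55.0%) had a member at the start, 2215 (12.8%) at the finish and 1594 (9.23%) at both. Chromosome X had 407 members for 966 genes, or 0.421 per gene, and the autosomes had from 0.596 on chromosome 7 to 0.866 on chromosome 11.

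Most groups of basic machinery had a member at more genes than the 58.3% of all protein-coding genes, but cohesin and CTCF did not. All 12 subunit genes of RNA polymerase II and all 8 of the chaperonin TRiC had one. So did 79 of 85 cytosolic and 75 of 78 mitochondrial ribosomal protein genes, 47 of 49 genes of respiratory complex I and its factors, 49 of 55 translation initiation factors and 41 of 48 proteasome genes. Among chromatin genes it was 16 of 18 for the remodeller SWI/SNF and 6 of 11 for cohesin and CTCF. The MCM and ORC genes, which license DNA replication, had members at 13 of 15, with a median percentile of 92.7 in KO 1 and 92.7 in KO 2, against 92.9 in WT 1 and 93.4 in WT 2. Families of sensory and epithelial tissues were at the other end, with 33 of 1106 olfactory receptors, 3 of 353 vomeronasal receptors, 1 of 42 beta defensins and 6 of 49 keratins. Hox genes had members at 12 of 39, Cd antigens at 55 of 100, Slc carriers at 228 of 373, Tmem genes at 173 of 237 and Zfp zinc finger genes at 311 of 397.

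**Figure D3:**
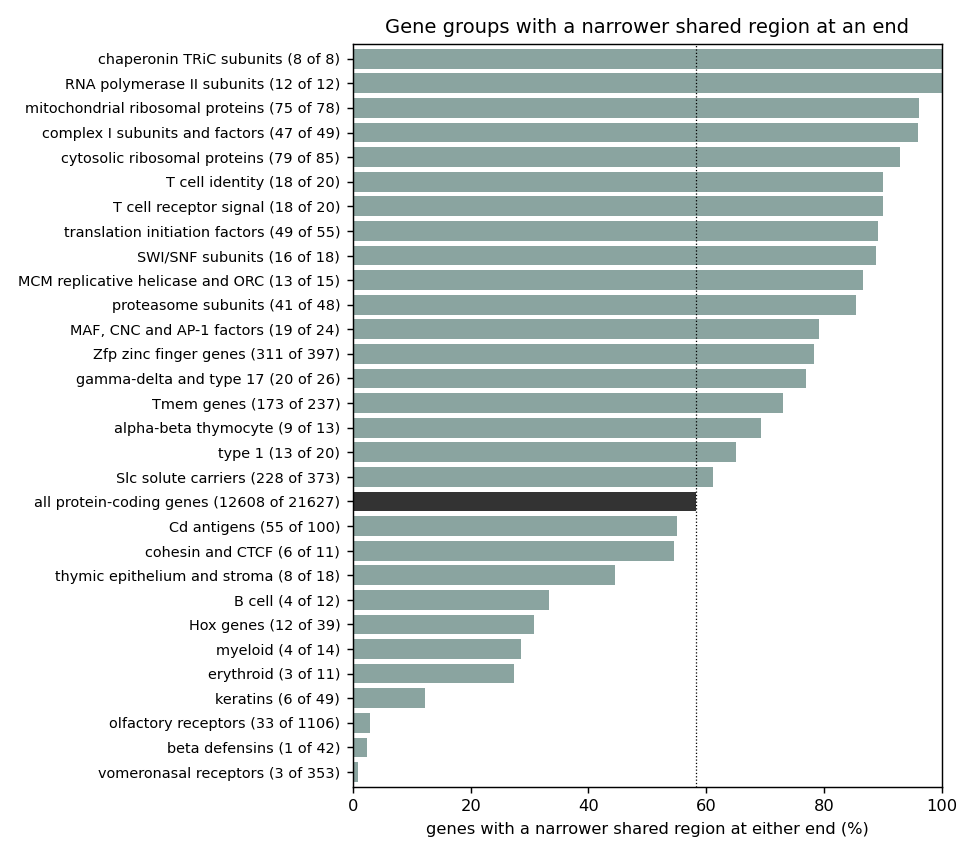
Percent of the protein-coding genes of each group with a narrower shared region at either end (x axis), with all protein-coding genes at 58.3% as the dark bar and dotted line. Most groups of basic machinery stand near the top, with 12 of 12 for RNA polymerase II, and sensory receptor families at the bottom, with 3 of 353 for vomeronasal receptors.

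The sorted cell type was checked against markers. Members were found at 18 of 20 genes of T cell identity, and the other two, Gata3 and Ets1, had peaks in fewer libraries. The highest ranked was the start of Cd3g, a signalling chain of the T cell receptor (chr9:44980309-44980632), with a −log10 q of 201 in KO 1 and 231 in KO 2, against 176 in WT 1 and 289 in WT 2. At the start of Cd3e, picked after its values were seen, it was 44.6 in KO 1 and 62.8 in KO 2, against 40.6 in WT 1 and 60.1 in WT 2. Lists of other cells had members at 4 of 12 B cell genes, 4 of 14 myeloid, 3 of 11 erythroid, 8 of 18 stromal and 9 of 13 αβ thymocyte genes. No peak lay at the ends of Pax5 and Vpreb1 of B cells, Csf1r, Lyz2 and Mpo of myeloid cells, or Gata1 and Alas2 of erythroid cells. Some markers of other cells ranked high. At the start of Cr2 of B cells the −log10 q was 199 and 187 in KO, against 132 and 242 in WT. Near Klf1 of erythroid cells the percentiles were 90.8 and 88.8 in KO, against 88.2 and 88.7 in WT. The median of the mean percentile was 85.6 over the 3 erythroid members and 75.2 over those of T cell identity. Peaks in fewer libraries were found at 3 B cell genes (Ms4a1, Blnk and Cd22), 3 myeloid (Adgre1, Fcgr1 and Cd14), 4 erythroid (Hbb-bt, Hba-a1, Hba-a2 and Tal1) and 4 stromal genes. The receptor constant genes Trdc, Tcrg-C1, Tcrg-C2 and Tcrg-C4 are not protein-coding in the table and stood outside the rule. In bulk libraries, fewer cells of a type and less accessible DNA per cell cannot be told apart.

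Promoters under members were richer in CpG than those with no peak. Of 15533 promoter windows, 1 per gene, 8016 overlapped a member and 6382 had no peak. Median GC content was 61.7% under members, 47.7% with no peak and 56.7% in all windows. A ratio of observed to expected CpG above 0.6, as in CpG islands, was reached by 78.3% under members, 11.4% with no peak and 49.5% of all. Windows under wider shared regions were richer still, with 91.4% above that ratio, a median GC content of 66.7% and GC boxes in 74.4%. GC boxes (GGGCGG) were in 69.1% of windows under members, against 47.4% of all windows. ETS sites (CCGGAAG) were in 20.5% against 12.2%, YY1 sites (AAGATGGC) in 5.21% against 3.30%, and sites of the ZBTB33 type (TCTCGCGA) in 2.63% against 1.53%. NRF1 sites (GCGCATGCG) were in 4.25% against 2.56%, CRE sites (TGACGTCA) in 3.77% against 2.41%, and E-boxes (CACGTG) in 10.9% against 8.11%. Lower under members were TATA boxes (TATAAA), in 6.24% against 13.8%, AP-1 sites (TGAGTCA), in 2.82% against 4.59%, and MAF-type sites (TGCTGA), in 14.9% against 17.9%. Both strands were searched for all 11 motifs, matches of different motifs may overlap, and a match is not a site of binding. Windows of like GC content were not compared, so the part of GC content in these shares was not tested.

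The CCAAT box, the sequence bound by NF-Y, differed little in share but varied with rank. It was in 41.4% of windows under members, against 39.8% of all windows. When members were put into 3 equal groups by mean rank, it was in 27% of the lowest, 34.3% of the middle and 62.8% of the highest group. Members with the motif had a median percentile of 93.3 in KO 1 and 93.2 in KO 2, against 93.1 in WT 1 and 93.2 in WT 2. Members without it had 80.9 in KO 1 and 79.5 in KO 2, against 79.7 in WT 1 and 80.1 in WT 2. Median widths were 481 bp with it and 501 bp without. The part of width, GC content or summit position in the difference in rank was not tested. Matches lay at a median of 82.5 bp before the start (quartiles −152.5 and −43.5 bp). For GC boxes the medians were 86.8 to 87.9 with the motif and 83.3 to 84.4 without, a smaller separation. Promoters are not replicates, and no test was made.

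The comparison of genotypes addresses what changes in accessibility when c-Maf is lost. The median percentile of the members was 70.1 ± 0.572 in KO and 70.5 ± 0.204 in WT (SD, n = 2 each), a difference of −0.391 points, smaller than the distance between KO 1 and KO 2 (exact 2-sided permutation test over the 4 libraries, p = 0.667). With 3 ways to split the libraries, the smallest p is 0.333. Members at starts differed by −0.0720 points and those at finishes by −0.799 points, where the genotypes did not overlap (exact permutation test, p = 0.333, the smallest possible). Libraries resembled each other in the members. The median absolute difference of a member's percentile was 3.57 points between KO 1 and KO 2, 3.81 between WT 1 and WT 2, and 3.33 to 4.17 between genotypes.

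A member was counted as ranked higher in KO when its lower KO percentile exceeded its higher WT percentile by at least 10 points, and as ranked lower in KO in the reverse case. This distance is called the gap. Ranked higher in KO were 254 members (1.60%), against 4.53% of all shared regions. Ranked lower in KO were 412 members (2.60%), against 4.94% of all shared regions. Both shares were below the background. With percentiles taken among all peaks of a library instead of among shared regions, 255 members were higher and 228 lower in KO, so the larger number was then on the other side. With a gap of at least 20 points, 45 members were higher, against 1.06% of all shared regions, and 88 were lower, against 1.5%. With no minimum gap beyond separation (0 points), 2677 were higher, against 21.1% of all shared regions, and 3155 lower, against 20.6%. Rank bounds the gap near the top of the scale. Above a mean percentile of 75, where 44.8% of members lay, 3 were higher and 8 lower. Between 25 and 50, 4.97% of members were higher and 6.97% lower, against 8.73% and 9.13% of other shared regions there.

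**Figure D4:**
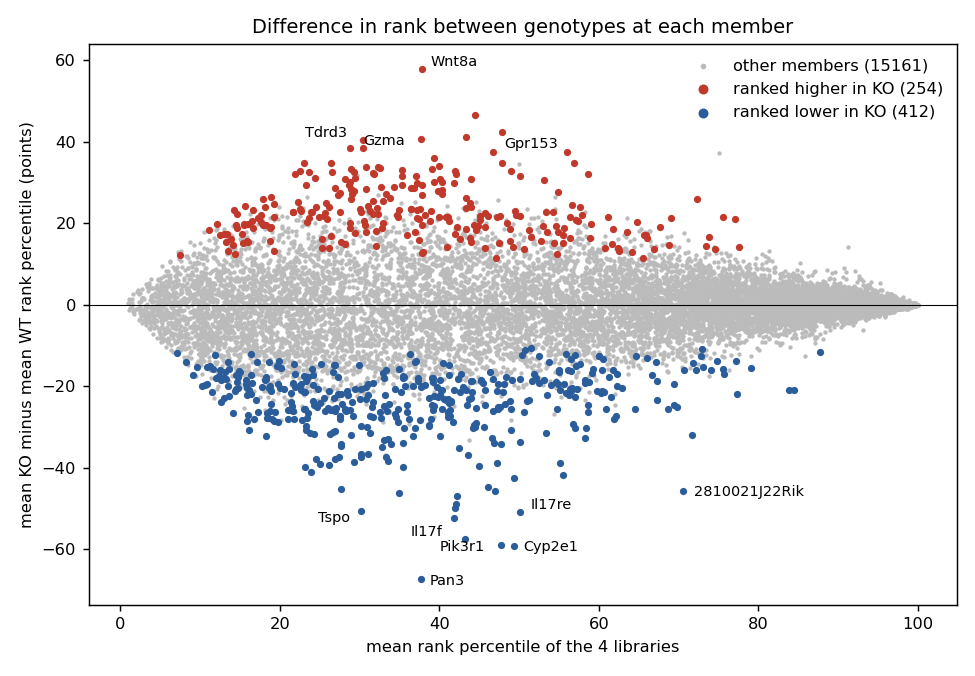
Mean KO minus mean WT rank percentile (y axis, points) against the mean percentile of the 4 libraries (x axis) for each of the 15827 members, with those ranked higher in KO (254) and lower in KO (412) in colour. The cloud narrows towards high rank, and Pan3 has the largest gap of those below 0.

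Members set apart by genotype were of lower mean rank, narrower and less often near a start than all members. Their median mean percentile was 35.8 for those lower and 36.9 for those higher in KO, against 69.6 for all members. Median widths were 263 bp for those lower and 258 bp for those higher in KO, against 383 bp for all members. A summit within 100 bp of an annotated start was found in 12.4% of those lower and 22% of those higher in KO, against 34.3% of all members. Narrow members and those with a summit far from a start ranked lower in general, as given above, and members of like rank were not compared. At finishes 3.79% of members were higher and 4.61% lower in KO, and at starts 1.2% were higher and 2.31% lower. At narrower shared regions inside genes and away from ends, 5.06% were higher and 5.82% lower. At divergent starts 3 of 713 were higher and 12 lower.

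The largest gap was 301 bp from an end of Pan3, a subunit of a poly(A) nuclease (chr5:147426509-147426699), where the −log10 q was 3.81 in KO 1 and 4.39 in KO 2, against 27.5 in WT 1 and 54.2 in WT 2. The peaks were called in both KO libraries at low values, and the gap was 66.5 points. At Cyp2e1, a cytochrome best known from liver (chr7:140764085-140764469), it was 6.43 in KO 1 and 11.6 in KO 2, against 35.9 in WT 1 and 77.6 in WT 2, with a gap of 53.4 points. At the finish of 2810021J22Rik (chr11:58883784-58884238) it was 17.2 in KO 1 and 22.5 in KO 2, against 91.2 in WT 1 and 173 in WT 2. That member alone among the 10 largest gaps had WT percentiles above 90, and its KO percentiles were 47.1 and 48.3. At the finish of Pik3r1, the regulatory subunit of PI3 kinase, it was 2.27 in KO 1 and 15.7 in KO 2, against 32.1 in WT 1 and 74.6 in WT 2, so the KO libraries differed from each other. Tff1, Gja3, Gm41291 and Tspo had gaps of 39.7 to 43.2 points, and Il17re and Il17f completed the 10.

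Members at 2 genes of the IL-17 system were among these 10. Il17f encodes a cytokine of type 17 cells, and its member (chr1:20784232-20784612) covered the start of the promoter printed above, 662 bp from the nearest end in the gene table. The −log10 q was 5.14 in KO 1 and 10.5 in KO 2, against 22.4 in WT 1 and 51.9 in WT 2. Fold enrichment at the summit was 5.33 in KO 1 and 7.96 in KO 2, against 10.6 in WT 1 and 18.3 in WT 2. Both KO libraries were below both WT libraries, with a gap of 44.5 points. Il17re encodes a receptor subunit for IL-17C. Its member 379 bp from the gene (chr6:113458019-113458320) had a −log10 q of 9.29 in KO 1 and 11.5 in KO 2, against 34.5 in WT 1 and 61.2 in WT 2, and a second, 23 bp from the gene, had 6.9 in KO 1 and 3.84 in KO 2, against 7.84 in WT 1 and 21.9 in WT 2. Both were lower in KO, while the genotypes overlapped at another member beside the finish, with percentiles of 1.96 in KO 1 and 5.95 in KO 2, against 2.71 in WT 1 and 15.9 in WT 2. With a member at the start of Emc3, they made a run of 3 members lower in KO among 6 members over 73.7 kb.

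Runs of at least 3 members of 1 direction, joined over at most 100 kb, numbered 4 for lower in KO. Besides Il17re and Emc3, the lower ones held 4 of 18 members over 173.7 kb of chromosome 7 at Ctf1, Fbxl19, Stx4a and Zfp646, and 3 of 10 over 153.9 kb of chromosome 10 at Tbxa2r, Smim24 and Celf5. The fourth held 3 of 6 over 54.6 kb of chromosome 11 at Olfr312, Gm12258 and 2810021J22Rik. These runs were found after the values were seen.

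Counts in the gene lists are read beside 1.60% higher and 2.60% lower in KO over all members. Lists overlap in part, with Maf also among the MAF factors. The list of γδ and type 17 genes had members at 20 of 26 genes, with 0 of its 26 members higher and 2 lower in KO. Besides Il17f, the lower one was near the start of Ccr2, a chemokine receptor (chr9:124100814-124101260), at percentiles of 13.3 in KO 1 and 5.68 in KO 2, against 31.4 in WT 1 and 35.3 in WT 2. With percentiles among all peaks, the gap at Ccr2 was 6.25 points, below the limit. The median percentile of the list was 61.6 in KO 1 and 64.4 in KO 2, against 64.7 in WT 1 and 62.9 in WT 2. Its highest ranked member, at the start of the ETS factor Etv5, had percentiles from 99.89 to 99.93 in the 4 libraries. Zbtb16, which encodes PLZF and was picked after its values were seen, had percentiles of 91.2 in KO 1 and 91.1 in KO 2, against 91.9 in WT 1 and 90.6 in WT 2. The genotypes overlapped there. Il17a, Ccr6, Tmem176a and Tmem176b had peaks in fewer libraries, Rora had no peak at an end, and Maf had a wider shared region only.

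Genes of type 1 cells, which make interferon-γ and kill, had members at 13 of 20 genes, with 3 of 25 members higher and 0 lower in KO. Gzma, which encodes granzyme A, had the largest gap. At its finish (chr13:113093443-113093678) the −log10 q was 19.7 in KO 1 and 35.9 in KO 2, against 4.14 in WT 1 and 12 in WT 2, with a gap of 29.5 points. At its start the percentiles were 83.3 in KO 1 and 78.5 in KO 2, against 79.7 in WT 1 and 84.1 in WT 2, and the genotypes overlapped. Gzmb, which encodes granzyme B, had a higher member at its start (chr14:56262178-56262533, in the window printed above), with a −log10 q of 33 in KO 1 and 39.4 in KO 2, against 14.7 in WT 1 and 30.8 in WT 2. Near Klrd1, a subunit of receptors of killer cells, the percentiles were 49.7 in KO 1 and 46.6 in KO 2, against 15.3 in WT 1 and 34.1 in WT 2. With percentiles among all peaks of a library, the gap was 20.1 points at Gzma but 6.27 at Gzmb and 5.25 at Klrd1, below the limit. The members at Gzma and Klrd1 were not called in every library with a −log10 q of at least 5. At the start of Runx3, the highest ranked of the list, the percentiles were 96.5 in KO 1 and 98 in KO 2, against 97 in WT 1 and 97 in WT 2. At the start of Ifng, picked after its values were seen, they were 68.7 in KO 1 and 67.2 in KO 2, against 59.9 in WT 1 and 65.4 in WT 2, short of the limit. The median of the list was 51.5 in KO 1 and 60.3 in KO 2, against 53.3 in WT 1 and 47.8 in WT 2.

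Of 31 members at T cell identity genes, 1 was higher in KO and 0 lower. It was at the start of Lef1, a partner of TCF1 in thymocytes (chr3:131109833-131110383), with a −log10 q of 32.9 in KO 1 and 38.9 in KO 2, against 14 in WT 1 and 21.2 in WT 2 and a gap of 15.1 points. Ranked by fold enrichment instead of −log10 q, its gap was −2.10 points, so the separation depended on the measure. The median of the list was 75 in KO 1 and 74.2 in KO 2, against 74.7 in WT 1 and 75 in WT 2.

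Genes that respond to the T cell receptor had members at 18 of 20 genes, with 0 of 36 members higher and 4 lower in KO. The 4 were near Bhlhe40, Rel, Irf4 and Nfatc1, which all encode transcription factors. Near Bhlhe40 the percentiles were 27.5 in KO 1 and 26.2 in KO 2, against 49.5 in WT 1 and 53.1 in WT 2. Near Rel they were 0.268 in KO 1 and 1.13 in KO 2, against 26.4 in WT 1 and 22.8 in WT 2, and near Irf4 11.3 in KO 1 and 5.36 in KO 2, against 33.2 in WT 1 and 25.8 in WT 2. With percentiles among all peaks of a library, the gap was 6.84 points at Bhlhe40 and 0.569 at Nfatc1, below the limit, and with a −log10 q of at least 5 it was 9.93 at Irf4. The Rel member was not called in every library with a −log10 q of at least 2. Its −log10 q was 1.70 in KO 1 and 3.18 in KO 2, against 6.37 in WT 1 and 12.5 in WT 2. The 4 members lay from 436 bp (Nfatc1) to 947 bp (Bhlhe40) from a gene end. At the start of Dusp6, a phosphatase of MAP kinases and the highest ranked of the list, the percentiles were 97.2 in KO 1 and 97.6 in KO 2, against 98.1 in WT 1 and 98.4 in WT 2. The median of the list was 58.6 in KO 1 and 46.5 in KO 2, against 60.1 in WT 1 and 55.6 in WT 2. MAF, CNC and AP-1 factors had members at 19 of 24 genes, with 0 of 30 members higher and 1 lower in KO. That was upstream of Atf3, a stress-induced factor (chr1:191183357-191183707), at 8.3 in KO 1 and 7.9 in KO 2, against 35.8 in WT 1 and 43.2 in WT 2. The Atf3 member was not called in every library with a −log10 q of at least 5. Maff and Nfe2l2 had wider shared regions only, and the highest ranked member was at the start of Nfe2l1.

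**Figure D5:**
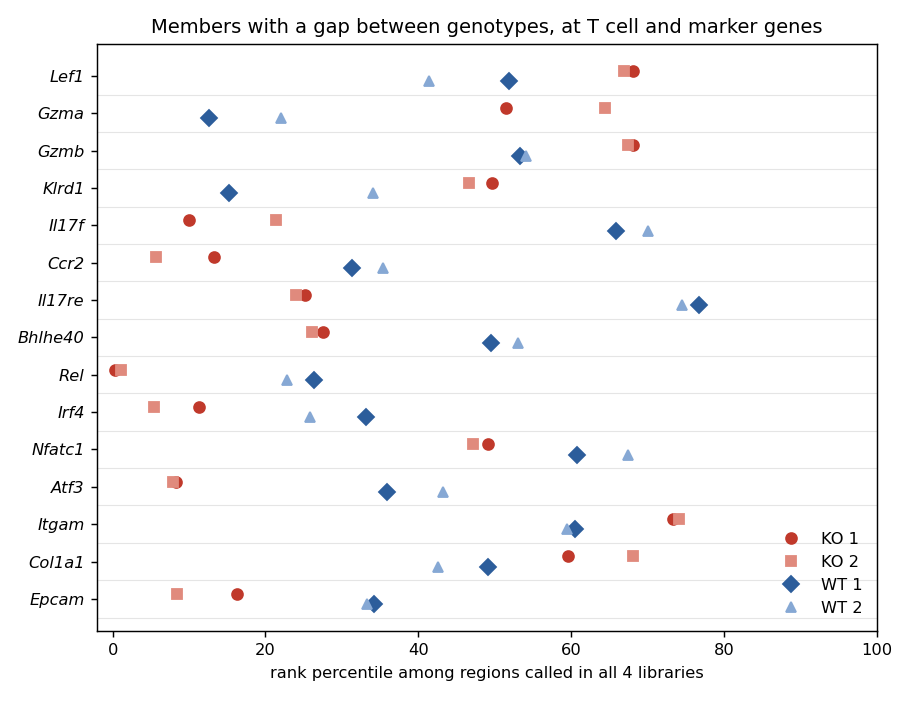
Rank percentile (x axis) of members with a gap of at least 10 points at T cell genes, at factors and at marker genes of other cells, with KO 1 and KO 2 above WT 1 and WT 2 in each row. Ccr2 stands at 13.3 and 5.68 in KO against 31.4 and 35.3 in WT, and Gzmb at 68.1 and 67.4 in KO against 53.3 and 54.1 in WT.

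Among marker genes of other cells, 0 of 7 B cell, 0 of 3 erythroid and 0 of 15 αβ thymocyte members were set apart by genotype. Of 6 myeloid members 1 was higher in KO, at the start of Itgam, an integrin of myeloid and natural killer cells, with percentiles of 73.4 in KO 1 and 74.1 in KO 2, against 60.6 in WT 1 and 59.5 in WT 2. Of 12 stromal members, 1 near the collagen gene Col1a1 was higher, at 59.5 in KO 1 and 68.1 in KO 2, against 49.2 in WT 1 and 42.5 in WT 2, and 1 near the adhesion gene Epcam was lower, at 16.2 in KO 1 and 8.43 in KO 2, against 34.2 in WT 1 and 33.3 in WT 2. With percentiles among all peaks, the gap was 7.39 points at Itgam and 4.94 at Epcam, below the limit. The median percentile of the myeloid list was 25.3 in KO 1 and 27.9 in KO 2, against 32 in WT 1 and 36 in WT 2. That of the stromal list was 31.2 in KO 1 and 34.7 in KO 2, against 37.4 in WT 1 and 35.7 in WT 2, and that of the αβ thymocyte list 48.8 in KO 1 and 39.4 in KO 2, against 46.1 in WT 1 and 52.6 in WT 2. That of the B cell list was 31.9 in KO 1 and 45 in KO 2, against 27.9 in WT 1 and 35 in WT 2, and that of the erythroid list 84.3 in KO 1 and 85.8 in KO 2, against 84.7 in WT 1 and 87.7 in WT 2. The part of other cells in the members named here was not tested. The highest ranked members of these lists were at Cr2, Cebpa, Klf1, Ccl25 and Themis. The region at Ccl25 was shared with Elavl1, a gene outside these lists.

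Counts at genes of basic machinery are given beside the same 1.60% higher and 2.60% lower over all members. Of 113 at cytosolic ribosomal protein genes, 3 were lower in KO, at Rpl32, Rpl18 and Rpl23, and of 99 at mitochondrial ones 1 was higher, at Mrpl36. The region at Rpl18 was shared with Fam83e. Near Psmd4, a ubiquitin receptor of the proteasome, percentiles were 46.4 in KO 1 and 37.4 in KO 2, against 79.8 in WT 1 and 69.4 in WT 2. Psmg1, in a region shared with Brwd1, was lower and Psmg4, in a region shared with Slc22a23, was higher. Of 54 members at proteasome genes, 1 was higher and 2 were lower in KO. Of 17 at RNA polymerase II subunit genes, 1 was lower. It was near Polr2c, with percentiles of 55.4 in KO 1 and 56 in KO 2, against 82.4 in WT 1 and 75.6 in WT 2. Near Arid1a of SWI/SNF they were 39.2 in KO 1 and 50.9 in KO 2, against 65.9 in WT 1 and 67.5 in WT 2, and near Ctcf, the insulator factor, 1.57 in KO 1 and 0.846 in KO 2, against 13.5 in WT 1 and 16.9 in WT 2. These were the only members set apart by genotype of 23 at SWI/SNF genes and 6 at cohesin and CTCF genes. The gap at Arid1a was 5.88 points with percentiles among all peaks, and that at Ctcf 1.82 points by fold enrichment, both below the limit. Of 62 members at complex I genes 2 were lower, at Ndufaf8 and at Ndufa4l2, the latter in a region shared with Stac3. Of 69 at translation initiation factors 1 was lower, at Eif2s3x. Of 410 members at Zfp genes 11 were higher and 3 lower in KO, of 343 at Slc genes 14 were higher and 9 lower, and of 253 at Tmem genes 10 were higher and 6 lower. Of 82 members at Cd antigens 1 was higher, at Cd40, and of 39 at olfactory receptors 2 were higher and 3 lower. Hoxc9, Krt83 and Defb47 each had 1 lower member, of 12 at Hox genes, 6 at keratins and 2 at beta defensins. The largest gap at Zfp, Slc and Tmem genes was near Slc15a3, a carrier of histidine and peptides, at 5.2 in KO 1 and 4.77 in KO 2, against 56.6 in WT 1 and 43.9 in WT 2.

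Of members higher in KO, the largest gap was near Wnt8a, which encodes a Wnt ligand, with a −log10 q of 22.2 in KO 1 and 56.8 in KO 2, against 3.05 in WT 1 and 7.84 in WT 2 and a gap of 44.8 points. At the finish of Tdrd3, a tudor domain protein (chr14:87544918-87545084), it was 19.9 in KO 1 and 22.8 in KO 2, against 2.91 in WT 1 and 9.29 in WT 2. At the start of Gpr153, an orphan receptor (chr4:152274960-152275140), it was 28.6 in KO 1 and 38.9 in KO 2, against 5.88 in WT 1 and 16.8 in WT 2. In each of these the KO libraries were both above the WT libraries. Tuba3b and Rnf223 followed with gaps of 31.7 and 30.5 points, and after Gzma came Tenm4, Actn4, Acrbp and Duxbl3 with gaps of 26.9 to 28.9 points. Tdrd3, Rnf223, Gzma, Tenm4 and Actn4 had these members at the finish, and the region at Acrbp also touched Ing4. The smallest gaps counted, none above 10.15 points, were at Hyal2, Rnf168, Pafah1b2, Bcdin3d and Dipk2a for lower and at Olfr15, Pard6g, LOC115486128, Abca8b and Fads3 for higher in KO.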

How the data were processed

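Omni-ATAC-seq peak lists of 2 KO and 2 WT libraries were analysed. Peaks had been called per library, and the submitters' processing notes name Bowtie2 2.3.4.1, MACS2 2.1.1, deepTools 3.1.2, Trim Galore, cutadapt, Picard and bedtools with GRCm38 and mm10. For Tn5 shifting, duplicates and peak settings, details were not given in the sources used here. Each deposited peak carries a score, a fold enrichment (a ratio to local background), a −log10 p, a −log10 q and a summit, all computed by the authors within its library. They served to describe, rank and filter peaks within a list. The number of peaks stands for depth, since reads were not analysed here. Merging, ranking and counting used Python 3.11.15, pandas 2.3.3 and numpy 2.4.6, and were tested on simulated data. Strand came from the RefSeq promoter table, since the gene table has none, and starts in these tables can differ. Named were the 10 members with the largest gap in each direction and 10 with the smallest, the 5 highest and 5 lowest ranked, list members with a gap of at least 10 points (counts only for the Zfp, Slc, Tmem and olfactory receptor families), the highest ranked of each list, and members at the limits. Members and lists were chosen with earlier results of these data known. Alternatives were thresholds, distances, widths, ranking measures, leaving out a library and the replicate block. Sequences outside promoter windows were not used here.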

Additional observations from a re-analysis of the deposited data

How the results depend on the processing

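The number of members was 12725 to 20789 over the alternatives and stayed within 1.5 times 15827. Their median width was 416 bp with peaks of a −log10 q of at least 5, 421 bp within 500 bp of a gene end, 348 bp within 2 kb, 353 bp with all genes of the table, 362 bp under 750 bp, and 353 to 364 bp when 1 library was left out. The KO minus WT median rank of −0.391 points turned to 0.134 with a −log10 q of at least 5, 0.0416 where peaks covered at least 0.5 of the region, 0.243 within 500 bp, and 1.40 with percentiles among all peaks of a library. Leaving out a library gave −0.814 to 0.0964, the last without KO 2, so its direction was not settled. Members higher in KO numbered 389 within 2 kb, 450 with all genes, 668 to 996 when 1 library was left out, 2677 with a gap of 0 points and 45 with 20. Members lower in KO numbered 272 with the coverage rule, 245 within 500 bp, 649 within 2 kb, 659 with all genes, 228 with percentiles among all peaks (255 were higher there), 1051 to 1483 when 1 library was left out, 3155 with a gap of 0 points and 88 with 20. Fewer libraries make a gap easier to reach, and the cause of the other shifts was not tested. In each of these settings both shares of members were below those of all shared regions. The correlation of deviations was 0.0308 over members, which cannot show whether libraries were prepared together. The labels of libraries with the same replicate number share no more than that number. With that number as a replicate block the difference was −0.391 points (0.158 and −0.940 within the pairs), and 432 members were higher and 673 lower in both pairs, or 2.73% and 4.25% against 6.82% and 7.06% of shared regions. Of 35 named members followed, a choice made after seeing the data, 33 kept a gap of at least 10 points when ranked by fold enrichment, all but Lef1 (−2.10) and Ctcf (1.82). With percentiles among all peaks 27 kept it, all but Nfatc1 (0.569), Epcam (4.94), Klrd1 (5.25), Arid1a (5.88), Ccr2 (6.25), Gzmb (6.27), Bhlhe40 (6.84) and Itgam (7.39). Only 22 were still called with a −log10 q of at least 5, and 21 of those kept the gap, all but Irf4 (9.93). Pan3 and Wnt8a, with the largest gap in each direction, were not called in every library at that limit. Nor were Tff1, Pik3r1, Tspo, Tdrd3, Tuba3b, Rnf223, Gzma, Klrd1, Rel, Atf3 and Ctcf. Where peaks covered at least 0.5 of the region, 22 of 23 kept a gap of at least 10 points, all but Ctcf (7.17). With 2 libraries a genotype, no exact p can fall below 0.333.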
